A study of Mus musculus with 8 samples.

Results

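The 10 genes described here encode calcium/calmodulin-dependent protein kinases (CaM kinases) and were followed in the hippocampus of mice that overexpress XBP1s, the spliced and active form of the transcription factor XBP1. They were taken by name, as the rows whose gene symbol was Camk2a, Camk2b, Camk2d, Camk2g, Camk4, Camkk1, Camkk2, Camk1, Camk1d or Camk1g, and all 10 were found among the 46983 genes of the table. The values are TPM, which are counts of reads divided by gene length and scaled to the same total of transcripts in each library, so that levels of different genes can be set side by side.

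The study asked what neuronal XBP1s, an arm of the unfolded protein response, does in the brain, and hippocampal RNA was sequenced from 4 XBP1s-TG mice (libraries S1 to S4) and 4 Control mice (libraries S5 to S8). All mice were C57BL/6 and 2 months old. The XBP1s-TG mice carried TRE-XBP1s and Camk2a-tTA, a transactivator under the Camk2a promoter, active in excitatory neurons of the forebrain, so that XBP1s is made there once doxycycline (Dox) is withdrawn. Samples were taken 7 days after Dox was removed from the drinking water, and the labels call the other group Control without listing its alleles. The transactivator thus uses the promoter of one of the 10 genes.

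CaM kinases turn a rise in calcium into phosphorylation of other proteins after binding calcium-loaded calmodulin. CaMKII is a large holoenzyme built from alpha, beta, gamma and delta subunits, is among the most abundant proteins of excitatory synapses and is required for many forms of hippocampal synaptic plasticity. In a separate cascade, the CaM kinase kinases CaMKK1 and CaMKK2 phosphorylate and activate CaMKI and CaMKIV, and CaMKK2 also phosphorylates AMPK, the cellular energy sensor.

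Between 34821797 and 52059316 whole reads per library could be recovered from the TPM values, and these totals are lower bounds. Xbp1 checked the labels. It stood at 549 to 1094 TPM in the XBP1s-TG libraries and at 68.9 to 71.9 TPM in the Control libraries. Choroid plexus markers set libraries S1 and S3 apart. The median of 10 genes was -2.87 and -2.79 there on the log2 scale relative to the Control mean. It was -0.40 in S2 and 0.35 in S4. Markers of the hypothalamus and limbic neighbours also set S1 apart, with Avp at 132 TPM and at most 7.96 in any other library, Oxt at 41.4 and at most 2.60, and Pmch at 57.2 and at most 4.32. The median of the 8 genes of that list was 2.29 in S1 and 0.54 to 0.62 in S2 to S4 on the same scale. Gal rose (log2 fold change 2.30, limma adjusted p 6.91e-05), from 0.764 to 1.26 TPM in Control to 9.10 to 19.6 TPM in XBP1s-TG libraries. The part of dissection in the CaM kinase values was not tested. Xist, transcribed from the inactive X chromosome, exceeded 10 TPM in 4 libraries (S3, S4 and the Control libraries S7, S8) and not in the other 4, so each group held 2 libraries of either pattern.

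Of the 9 members tested across genes, 1 fell in XBP1s-TG mice, Camkk2. A gene was called when its Benjamini-Hochberg adjusted p from limma was under 0.05 and its fold change at least 1.5, and 2.75% of the 9270 genes tested were called lower, 5.61% higher and 8.36% in either direction. At an adjusted p under 0.05 without the fold limit, 7 of the 9 were lower and 0 were higher, and of all genes tested 29.4% were lower and 24.4% higher on that rule. At an unadjusted p under 0.05, too, 0 members were higher. The 7 were Camkk2, Camkk1, Camk2b, Camk2a, Camk4, Camk1 and Camk1g, while Camk1d and Camk2g did not pass. The median log2 fold change of the 9 was -0.41, against -0.04 over all genes tested. The 10th member, Camk2d, was under 14 TPM in every library and did not enter the test across genes.

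In 6 of the 9 members tested every XBP1s-TG library was below every Control library, and 13.2% of all genes tested showed that. In bulk tissue, fewer cells of a type and less RNA per cell cannot be told apart. Leaving out S1 and S3 kept the number of members lower at an adjusted p under 0.05 at 7 and the number called at 1. Without S1 alone these were 7 and 2.

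**Figure D1:**
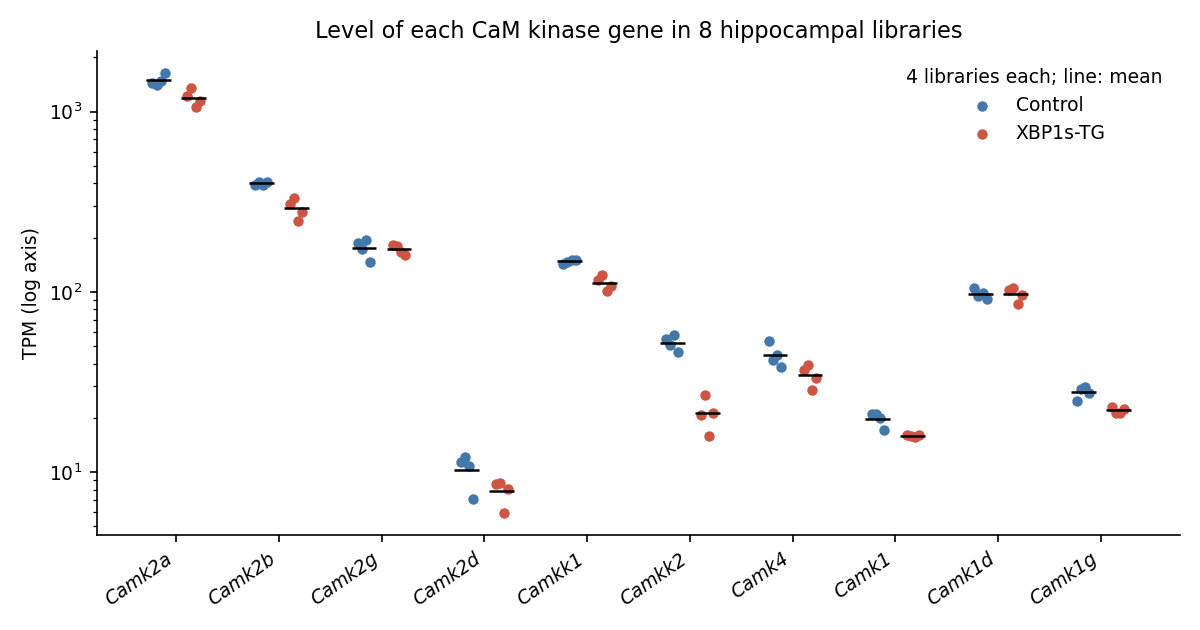
TPM on a log axis for each of the 10 CaM kinase genes, with 1 point for each library (blue, 4 Control; red, 4 XBP1s-TG) and a line at the mean of each group. The levels run from 5.95 TPM for Camk2d to 1642 TPM for Camk2a, and the groups stand farthest apart for Camkk2.

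Camkk2, an activating kinase of CaMKI, CaMKIV and AMPK, lies at chr5:122731170-122779409 on the minus strand of GRCm38. It measured 20.8, 26.9, 15.9 and 21.3 TPM in S1 to S4 and 54.6, 50.7, 57.3 and 46.4 TPM in S5 to S8. The XBP1s-TG mean of 21.2 ± 4.50 TPM (SD, n = 4) was 0.406 of the Control mean of 52.3 ± 4.73 TPM (SD, n = 4). All 4 XBP1s-TG libraries lay well below the lowest Control library. On the log2 scale Camkk2 fell by 1.34 (SE 0.12, 95% interval -1.62 to -1.07) with a limma adjusted p of 2.87e-05. Between 2116 and 3846 recovered reads in XBP1s-TG libraries and between 6195 and 9873 in Control libraries stood behind these values.

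The paralog Camkk1, which also activates CaMKI and CaMKIV, lies at chr11:73019008-73042073 on the plus strand. Its levels were 117, 123, 102 and 108 TPM in S1 to S4 and 143, 147, 150 and 151 TPM in S5 to S8. The groups did not overlap, and the Control libraries lay within a narrow range. The log2 fold change was -0.49 (SE 0.07, 95% interval -0.64 to -0.34, limma adjusted p 0.000318), short of 1.5-fold. The log2 ratio of Camkk2 to Camkk1 was lower in XBP1s-TG by a difference of -0.93 (exact two-sided permutation p = 0.0286, adjusted over 6 ratios 0.0429), in 4 of 4 libraries, and 0.0286 is the smallest p that 4 against 4 libraries allow. The 6 ratios were chosen after their values were seen.

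The sequences around the start sites of both CaM kinase kinases are shown because XBP1s binds DNA and these genes are the upstream step of the cascade. They come from RefSeq (GRCm38.p6), cover 250 bases before and 50 after the start, and carry in capitals each match to ACGTG or CCACG on either strand (CGTGG and CACGT are their reverse complements). Camkk2 is shown from chr5:122779361-122779660 on the minus strand and Camkk1 from chr11:73018738-73019037 on the plus strand.
Camkk2: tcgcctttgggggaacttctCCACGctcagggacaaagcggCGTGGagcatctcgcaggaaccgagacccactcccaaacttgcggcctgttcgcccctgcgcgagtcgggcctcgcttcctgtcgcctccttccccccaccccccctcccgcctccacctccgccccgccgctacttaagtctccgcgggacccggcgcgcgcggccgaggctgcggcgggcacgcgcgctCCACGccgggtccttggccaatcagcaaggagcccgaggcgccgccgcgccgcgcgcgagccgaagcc
Camkk1: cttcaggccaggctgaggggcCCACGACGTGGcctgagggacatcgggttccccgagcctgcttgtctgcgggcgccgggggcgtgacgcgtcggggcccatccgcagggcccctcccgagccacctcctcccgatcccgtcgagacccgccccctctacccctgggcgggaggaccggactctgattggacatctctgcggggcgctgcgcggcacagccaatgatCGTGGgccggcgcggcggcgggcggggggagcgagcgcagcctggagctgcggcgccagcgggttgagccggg

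Camkk2 had 3 matches to CCACG, and Camkk1 had 3 to CCACG and 1 to ACGTG, and the ACGTG match overlaps 1 of the CCACG matches. Promoters were found for 7 of the 10 members, as 8 windows of 300 bases, and not for Camk2a, Camk2g and Camk4. CCACG was in 3 of the 8 windows and in 32.8% of all 32851 windows, and ACGTG was in 1 of the 8 and in 19.6% of all. The windows of Camk2b, Camk1, Camk1d and Camk1g held neither. Longer elements of the unfolded protein response, namely CCAAT and CCACG with 9 bases of any kind between (0.119% of all windows), ATTGG and CCACG with 1 base between (0.0365%) and TGACGTGG (0.676%), were in 0 of the 8, as was the cyclic AMP response element TGACGTCA (1.79%). All were searched on both strands, and a match describes letters only.

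Camk4, a kinase of neuronal nuclei that phosphorylates CREB, was measured at 36.7, 39.3, 28.4 and 33.5 TPM in S1 to S4 and at 53.3, 42.1, 44.5 and 38.3 TPM in S5 to S8. In 3 of the 4 XBP1s-TG libraries it was below the lowest Control library, and S2 overlapped. Camk4 had a log2 fold change of -0.47 (SE 0.11, limma adjusted p 0.00549), short of 1.5-fold. Its gene model overlaps an antisense gene, and whether reads were counted by strand is not given in the sources used here, although the library kit marks strand.

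Among the CaMKI genes, Camk1 (CaMKI alpha) measured 15.995, 15.93, 15.74 and 16.14 TPM in S1 to S4 and 20.92, 20.95, 19.92 and 17.02 TPM in S5 to S8. The 4 XBP1s-TG libraries lay within a very narrow band, just below the lowest Control library, S8. Its log2 fold change was -0.35 (SE 0.05, limma adjusted p 0.000281), short of 1.5-fold. Camk1 overlaps Ogg1 on the opposite strand.

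Camk1g (CaMKI gamma) was at 23.0, 21.4, 21.2 and 22.4 TPM in S1 to S4 and at 24.8, 28.9, 29.8 and 27.6 TPM in S5 to S8. The groups did not overlap, and the log2 fold change was -0.41 (SE 0.06, limma adjusted p 0.000461), short of 1.5-fold. Camk1d (CaMKI delta) had the highest level of the 3 CaMKI members, at 103, 105, 85.7 and 95.6 TPM in S1 to S4 and at 104, 94.6, 98.0 and 91.5 TPM in S5 to S8. Its groups overlapped almost fully. Its log2 fold change was -0.12 on the normalized scale (95% interval -0.29 to 0.05, limma adjusted p 0.203), while the mean TPM values were 97.3 and 97.2. The log2 ratio of Camk1 to Camk1d was lower in XBP1s-TG by -0.30 (exact two-sided permutation p = 0.0286, adjusted over 6 ratios 0.0429). That of Camk1g to Camk1d differed by -0.33 (exact two-sided permutation p = 0.0571). Both are among the 6 ratios chosen after their values were seen, a choice the adjustment does not cover.

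**Figure D2:**
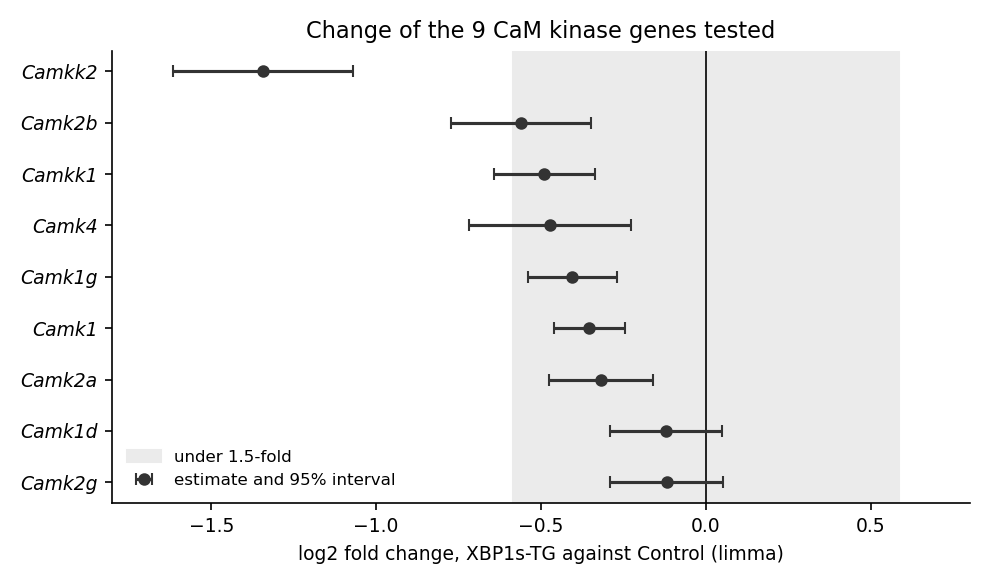
Log2 fold change of the 9 CaM kinase genes tested, XBP1s-TG against Control, as points with 95% intervals from limma, and a grey band where the change is under 1.5-fold. Camkk2 alone lies outside the band with its whole interval, and the intervals of Camk1d and Camk2g include 0.

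Camk2a encodes the alpha subunit of CaMKII and had the highest level of the 10 genes in every library. It was measured at 1216, 1359, 1064 and 1149 TPM in S1 to S4 and at 1439, 1410, 1469 and 1642 TPM in S5 to S8. No XBP1s-TG library reached the lowest Control library. The log2 fold change was -0.32 (SE 0.07, 95% interval -0.47 to -0.16, limma adjusted p 0.0043), short of 1.5-fold, and between 95273 and 177686 recovered reads a library stood behind it.

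Camk2b encodes the beta subunit, which binds actin. It was at 306, 332, 246 and 278 TPM in S1 to S4 and at 389, 407, 394 and 409 TPM in S5 to S8. The Control libraries were close together and all above the XBP1s-TG libraries, which spread more widely. The log2 fold change was -0.56 (SE 0.09, 95% interval -0.77 to -0.35, limma adjusted p 0.000969), just short of 1.5-fold. Camk2b passed the fold limit at -0.59 when S1 was left out, at -0.64 when S2 was left out and at -0.59 with median centring.

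Camk2g, the gamma subunit gene, was at 181, 180, 167 and 160 TPM in S1 to S4 and at 188, 173, 193 and 147 TPM in S5 to S8. The groups overlapped, with S8 the lowest of all libraries. Its log2 fold change was -0.12 (95% interval -0.29 to 0.05, limma adjusted p 0.214). Without S8 it was -0.18 at an adjusted p of 0.0324.

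Camk2d, the delta subunit gene, was at 8.59, 8.68, 5.95 and 8.10 TPM in S1 to S4 and at 11.4, 12.1, 10.8 and 7.09 TPM in S5 to S8. Library S8 was within the XBP1s-TG range and the other 3 Control libraries were above it. On the log2(TPM + 2) scale its mean differed by -0.32 (p = 0.114, exact permutation, two-sided). Camk2d also overlaps an antisense gene model.

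Summed over the 4 subunit genes, CaMKII transcripts came to 1667 ± 170 TPM (SD, n = 4) in XBP1s-TG mice and 2075 ± 90.6 TPM (SD, n = 4) in Control mice. The sums did not overlap, running from 1482 to 1879 and from 2002 to 2205 TPM (log2 difference -0.32, exact two-sided permutation p = 0.0286, adjusted over 5 subunit comparisons 0.0476). With any 1 library left out the smallest p the design allows is 0.0571. Groups without overlap always reach it, so leaving libraries out could not test this result.

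The make-up of the sum differed in its minor subunits. Camk2b took 17.4 ± 0.574% (SD, n = 4) of it in XBP1s-TG and 19.3 ± 0.757% (SD, n = 4) in Control libraries, and Camk2g took 10.4 ± 0.728% and 8.48 ± 1.24% (SD, n = 4 each). For both, the groups did not overlap (exact two-sided permutation p = 0.0286, adjusted p 0.0476). For Camk2g the gap was narrow, from 9.34% in the highest Control library to 9.57% in the lowest XBP1s-TG library. On normalized values these were 9.586% and 9.596%. Camk2a took 71.8 ± 0.563% and 71.7 ± 1.83% (SD, n = 4 each), a difference of 0.0463 percentage points (exact permutation p = 0.971), and Camk2d took 0.468% and 0.502% (exact permutation p = 0.629). The highest Camk2a share, 74.4%, and the lowest Camk2g share, 6.68%, were both in Control library S8.

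**Figure D3:**
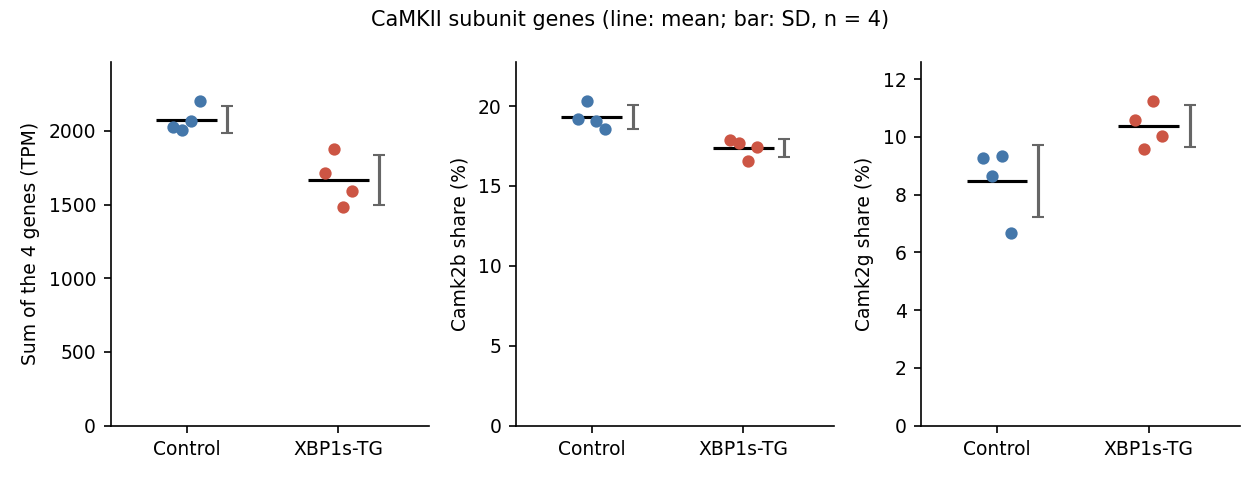
Summed TPM of the 4 CaMKII subunit genes (left), and the percent of that sum taken by Camk2b (middle) and by Camk2g (right), with 1 point a library, a line at the mean and a bar of 1 SD (n = 4 a group). The groups do not overlap in any of the 3 panels, with XBP1s-TG lower for the sum and for Camk2b and higher for Camk2g.

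Ordered by mean TPM in Control mice, the genes ran Camk2a, Camk2b, Camk2g, Camkk1, Camk1d, Camkk2, Camk4, Camk1g, Camk1 and Camk2d. Neighbours whose ranges overlapped were Camk2g with Camkk1 and Camkk2 with Camk4. In XBP1s-TG mice Camkk2 came after Camk4 and Camk1g, and its range overlapped those of Camk1g and Camk1. The other genes kept their order. Camk2a stood at 3.73 times the mean of Camk2b in Control mice and 4.12 times in XBP1s-TG mice. In single libraries this ratio overlapped between groups, with Control library S8 at 4.01 and XBP1s-TG library S1 at 3.97. The log2 ratio of Camk2b to Camk2a had an exact two-sided permutation p of 0.0571.

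Across the XBP1s-TG libraries, the members were by their median lowest in S3 and least lowered in S2. S3 was the lowest of the 4 for 9 of 10 members, against 25.6% of all genes tested and 47.3% of the 2729 genes lower at an adjusted p under 0.05. S2 was the highest of the 4 for 7 of 10 members, against 23.3% of all genes tested. The median log2 difference from the Control mean over the 10 members was -0.57 in S3, -0.36 in S4, -0.35 in S1 and -0.29 in S2. Xbp1 was highest in S3, at 1094 TPM, and lowest in S2, at 549 TPM, and Camkk2 ran in the reverse order of Xbp1 over these 4 libraries. With 4 libraries no correlation was computed.

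**Figure D4:**
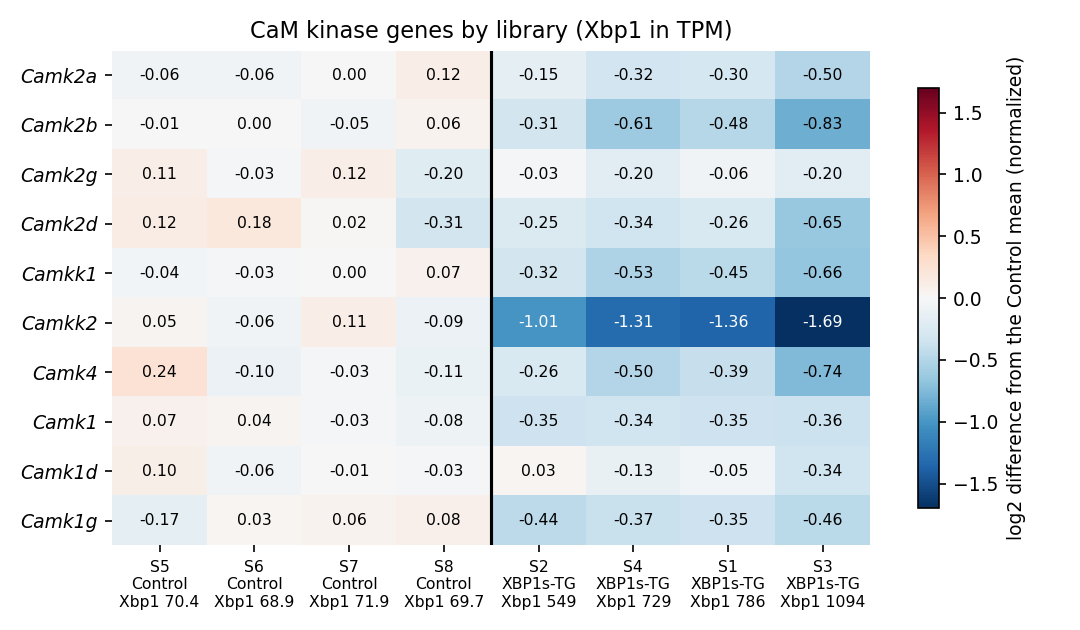
Normalized log2 difference of each member from its Control mean, in 8 libraries (columns, with Xbp1 in TPM below), blue for lower and red for higher. Every member but Camk1d in S2 lies below its Control mean in every XBP1s-TG library, with Camkk2 at -1.69 in S3 and -1.01 in S2.

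Within each Xist pattern, compared 2 against 2 libraries with no test, every member had a lower mean in XBP1s-TG mice on the normalized log2 scale. In TPM this did not hold for Camk1d (104 in XBP1s-TG and 99.5 in Control) and Camk2g (181 and 180.3) in the Xist-low libraries. For Camkk2 the log2 difference was -1.51 in the Xist-high and -1.18 in the Xist-low libraries. For Camk2a it was -0.47 and -0.17. For Camk1d it was -0.21 and -0.03.

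Markers of cell types were read beside these results. Of the 6 forebrain excitatory neuron markers tested, Neurod6 (log2 fold change -0.94) and Nrn1 (-0.89) fell, while Slc17a7, the vesicular glutamate transporter of these neurons, was higher by 0.16 at a limma adjusted p of 0.0161, short of 1.5-fold. Their summed level was 2103 to 2403 TPM in XBP1s-TG and 2287 to 2600 TPM in Control libraries. Of 4 dentate granule markers tested, 3 fell (C1ql2, Dsp and Lct) and Prox1 had a log2 fold change of -0.10, with summed levels over 6 genes of 75.7 to 135 and 128 to 164 TPM. Of 2 CA3 pyramidal markers tested, 1 fell (Bok, -0.70) and 2 were lower at an adjusted p under 0.05. Of 4 CA1 pyramidal markers tested, 1 was called higher (Wfs1, 1.98) and 0 lower, and 1 was lower at an adjusted p under 0.05. Of 7 interneuron, 6 astrocyte and 6 oligodendrocyte markers limma called 0 (2, 2 and 0 at an unadjusted p under 0.05). Of 5 microglial markers 0 were called but 5 were lower at an adjusted p under 0.05. Over all genes tested, 2.75% were called lower and 29.4% were lower at an adjusted p under 0.05. The part of cell composition in the CaM kinase values was not tested.

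The wider pathway was read from 8 lists holding 62 genes, of which 56 were tested. Of these, 8 fell and 0 rose by limma (35 lower and 4 higher at an unadjusted p under 0.05). Of all genes tested, 2.75% were called lower and 5.61% higher. At an adjusted p under 0.05 alone, 34 list genes were lower and 4 higher, against 29.4% and 24.4% of all genes tested. The median log2 fold change was -0.21 over the list genes and -0.04 over all genes tested. Leaving out S1 and S3, 4 fell (Adcy1, Adcy8, Camkv and Kalrn). Adcy1, Camkv and Kalrn passed in every alternative fit at both thresholds, while Gap43, Shank3 and Ppp3ca, close to the fold limit, each missed it when any of several single libraries, S3 and S8 among them, was left out.

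Calmodulin genes and the small proteins that hold calmodulin without calcium came first. All 6 genes of that list were lower at an adjusted p under 0.05, as were 29.4% of all genes tested. Gap43, a growth cone protein, fell (178 and 250 TPM, log2 fold change -0.59, limma adjusted p 7.41e-05). Neurogranin (Nrgn), which holds calmodulin at low calcium, was at 1598 ± 125 TPM and 2528 ± 175 TPM (SD, n = 4 each), with a log2 fold change of -0.56 that was short of 1.5-fold and passed it at -0.66 without normalization beyond TPM. The calmodulin genes Calm2 and Calm3 had log2 fold changes of -0.20 and -0.21, short of 1.5-fold. Of the CaMKII inhibitor genes, Camk2n1 was lower (414 ± 26.7 and 601 ± 79.0 TPM, SD, n = 4 each, log2 fold change -0.58, limma adjusted p 0.000645) and just short of 1.5-fold, while Camk2n2 did not pass (0.09, adjusted p 0.436).

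At the synapse, 9 of 11 binding partners and substrates of CaMKII were lower at an adjusted p under 0.05, against 29.4% of all genes tested. The median log2 fold change of the 11 was -0.40, against -0.04 over all genes tested. Of these Kalrn, a guanine nucleotide exchange factor of dendritic spines (-0.79), and Shank3, a postsynaptic scaffold (-0.60), fell. The scaffold Dlg4 was at -0.40, short of 1.5-fold, and the AMPA receptor subunit Gria1 was at -0.04 (limma adjusted p 0.531).

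The kinase-related genes did not share a direction. Camkv, a relative of CaM kinases that lacks kinase activity, fell from 511 ± 28.2 to 324 ± 36.1 TPM (SD, n = 4 each, log2 fold change -0.74, limma adjusted p 0.000146). Pnck, the CaMKI beta gene, was higher in XBP1s-TG mice, at 144, 101, 151 and 128 TPM in S1 to S4 and 84.2, 90.7, 85.03 and 90.8 TPM in S5 to S8. Every XBP1s-TG library was above every Control library, and the log2 fold change was 0.43 (SE 0.10, limma adjusted p 0.00527), short of 1.5-fold. Cask, a synaptic scaffold with a CaM kinase domain, was likewise higher by 0.37 (limma adjusted p 0.000267), short of 1.5-fold.

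Downstream of the cascade, 0 of 5 AMPK subunit genes tested were called by limma (3 at an unadjusted p under 0.05), and Prkab2 was higher by 0.29 and Prkaa2 lower at -0.26, both short of 1.5-fold. Of 9 CREB and MEF2 genes, Mef2c fell at -0.80 (limma adjusted p 0.0116). Its Control libraries were at 84.5, 55.5, 71.7 and 32.9 TPM, with S8 below all 4 XBP1s-TG libraries at 33.8 to 37.9 TPM, and it was not called when S1 and S3 were both left out or by an unequal-variance test. The catalytic calcineurin subunit Ppp3ca fell (657 and 977 TPM, log2 fold change -0.59). The calmodulin-stimulated adenylyl cyclases Adcy1 (-1.20) and Adcy8 (-0.76) fell, from 228 to 108 TPM and from 16.5 to 9.50 TPM, and Pde1b was at -0.58, short of 1.5-fold.

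**Figure D5:**
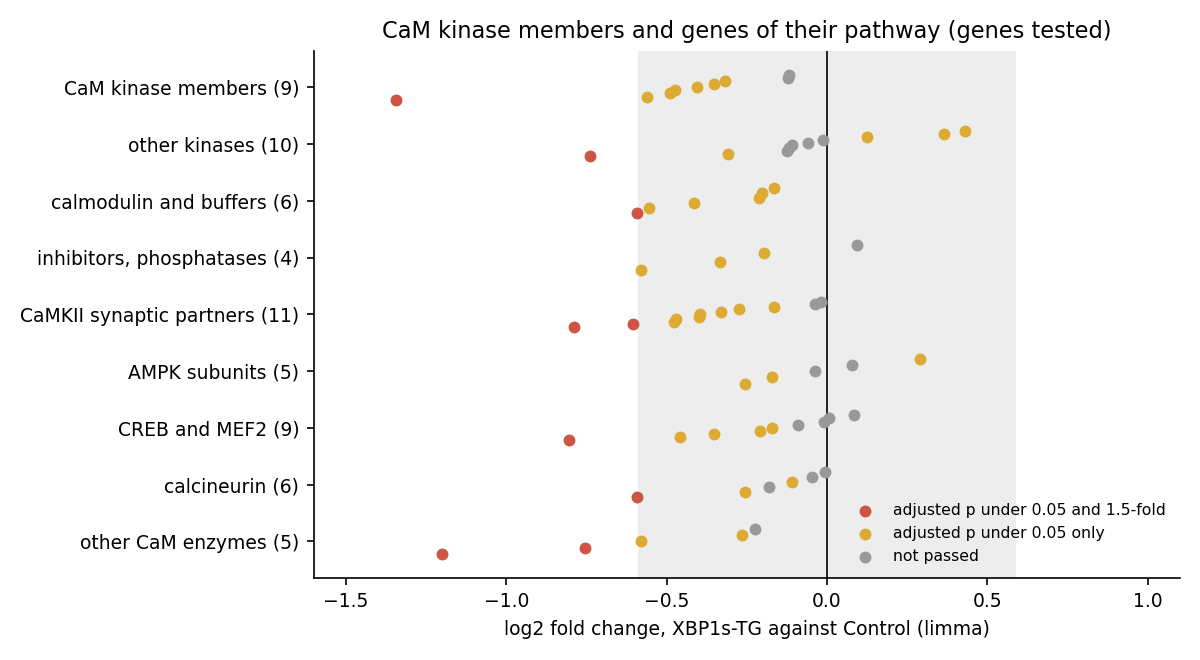
Log2 fold change of every gene tested among the CaM kinase members and the 8 pathway lists, with the number of genes in brackets, red for genes that passed both thresholds, yellow for an adjusted p under 0.05 alone and grey for neither. The grey band marks changes under 1.5-fold, and all 9 red points, Camkk2 and 8 list genes, lie to its left.

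The genes with the profile most like Camkk2, by the root mean square of the log2 difference between profiles over the 8 libraries, were Adcy1 (0.149), Slc30a3 (0.158), Fxyd7 (0.182), Ddn (0.186) and Doc2a (0.188). For Camk2a they were Zfand2b (0.0392), Ablim3 (0.0407), Ccdc85b (0.0445), Abhd17c (0.0451) and R3hdm4 (0.0451). These are descriptions of 8 libraries with no test.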

How the data were processed

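Hippocampal RNA of 4 XBP1s-TG and 4 Control mice was sequenced, from a stranded mRNA kit. The authors checked reads with FastQC, trimmed them with Trimmomatic, mapped them to GRCm38 in a commercial workbench and deposited TPM values per gene, scaled within each library. The deposited table also holds fold changes and p-values of the authors' own comparison, which were not used, and 0 columns of samples outside the series. The columns S1 to S8 give a group but no replicate number. Nothing states whether the mice were paired or whether libraries were prepared together. The p-values rest on differences among these libraries and take no account of either.

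Here 2 was added to each TPM value, log2 taken and the libraries quantile normalized. Genes with 1 library above 4 (14 TPM) were tested with lmFit and eBayes with trend in limma 3.58.1 (R 4.3.3), two-sided, with Benjamini-Hochberg adjustment over 9270 genes. Fold changes are on the log2(TPM + 2) scale, which understates changes of low genes. Shares, sums and ratios were compared by exact permutation in scipy 1.17.1, with scipy's two-sided p. Another two-sided form, of the absolute difference, was run during the work and set aside: it changed only p-values with libraries left out. Whole reads were recovered from TPM for 29237 of 29237 genes at a tolerance of 0.001, as the smallest whole numbers that fit. The script was tested on simulated data.

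The members and lists were chosen with earlier results of these data known. The plan was to name all members, every list gene called, Xbp1, and the 5 genes closest in profile to Camk2a and to Camkk2. It also covered the 2 genes of smallest adjusted p in each list, but some of these are not named here. Other genes in the text were chosen after their values were seen. Alternatives changed the pseudocount, filter, normalization, variance model, call rule and libraries. The Xist covariate, voom on recovered reads and quantile-normalized Camk2d were added after seeing the data. Some list genes are not reported here by name.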

Additional observations from a re-analysis of the deposited data

Results flagged for a closer look

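In Control library S8, Camk2a made up 74.4% of the summed TPM of the 4 CaMKII subunit genes, against 70.4% to 71.1% in the other 3 Control libraries. Its gap to the nearest library was 0.833 of the group's range, just above Dixon's critical value for 4 samples. Among 30 groups of values looked at, chance would flag about 1 in 20.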

How the results depend on the processing

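The 7 members lower at an adjusted p under 0.05 stayed lower in every alternative that tested them. Camkk2 ranged from -1.46 to -1.15 (largest adjusted p 0.00784), Camk2b from -0.64 to -0.47 and Camk2a from -0.44 to -0.25 (largest 0.0326 for each). Members called numbered 2 with median centring, 7 on adjusted p alone and 1 to 2 with 1 library left out. List genes called numbered 38 on adjusted p alone, 4 without S1 and S3, and 5 to 11 with 1 library left out. Over all genes, 150 were called lower without normalization beyond TPM (709 higher), 152 without S1 and S3, and 255 in the reported fit (520 higher), with 191 to 333 when 1 library was left out. The absence of normalization moved the median log2 fold change from -0.04 to 0.07. Adjusted p alone gave 4989 genes, 2260 higher and 2729 lower. The Camk2a share difference ran from -0.391 to 0.950 percentage points with 1 library left out, so its sign is not set by these data, and was 1.39 (exact permutation p = 0.143) on normalized values. The log2 difference of the CaMKII sum ran from -0.380 to -0.266 with 1 library left out. Without S1 and S3 it was -0.26 (exact permutation p = 0.133). For the sum, all p-values with libraries left out are the smallest the design allows, which the lack of overlap in the full groups had fixed in advance. This does not hold for the Camk2a share. No paired analysis was possible because the columns carry no replicate numbers, and the planned replicate block was not run. Each member had at least 686 recovered reads in every library.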
